A study of Mus musculus with 6 samples.

Results

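A set of 9 genes that mark B cells and plasma cells was measured in the livers of 6 mice, 3 WT and 3 CgA-KO. The genes are Cd79a, Cd79b, Ms4a1, Cd22, Blk, Pou2af1, Jchain, Mzb1 and Cr2, and their rows were taken by symbol from a table of 32212 rows. All were found, 1 row for each. CgA-KO mice lack chromogranin A, the prohormone that Chga encodes. All animals were male, 2 yr old, of C57BL/6 background and on normal chow, and the KO allele was the difference between the groups. How that allele was made is not given in the sources used here. Each library was made from poly(A)-selected RNA of 1 liver, a tissue in which B cells are a small part of all cells. In such bulk samples, fewer cells of a type and less RNA per cell cannot be told apart.

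B cells carry an antibody on their surface as the B cell receptor. The membrane antibody binds antigen, and its partners Cd79a (Ig alpha) and Cd79b (Ig beta) carry the signal into the cell, where kinases of the Src family such as Blk and Lyn start a cascade that coreceptors raise or lower. An activated B cell may become a plasma cell, which stops making most of these surface proteins and secretes antibody. In the liver, B cells are found among the lymphocytes of the sinusoids and portal tracts, and plasma cells there are known for IgA.

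The total count per library ran from 10558616 in WT replicate 1 to 31087453 in WT replicate 2. Levels are given as CPM, counts scaled to a common library total, with TMM factors that even out differences in composition between libraries. The lowest level taken as seen, 3 counts, came to 0.0951 to 0.269 CPM. These floors and the intervals of shares cover counting error only. Chga was at 0 counts in all 6 libraries and could not check the genotype labels. The liver label was borne out by the hepatocyte markers, whose sum of 10 genes was 50834 to 100224 CPM in every library. The genotypes were tested with the quasi-likelihood method of edgeR over 13867 genes, with p-values adjusted over all of them by the Benjamini-Hochberg method and calls at an adjusted p under 0.05. With 3 livers in each genotype, the smallest p of an exact permutation test is 0.1.

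Upstream sequences of 3 of the genes are shown because their levels behaved differently. Cd22 was the member with no overlap between the genotypes, Pou2af1 had the largest fold change once WT replicate 1 was left out, and Jchain was the member whose pattern over the libraries differed most from the rest. They are the bases that precede the RefSeq start (GRCm38.p6), written 5′ to 3′ on the strand of the gene, without bases that GENCODE lists as exon. The capitals mark a match to the core of EBF1, a transcription factor of early B cells.
Cd22, chr7:30879029-30879176, minus strand: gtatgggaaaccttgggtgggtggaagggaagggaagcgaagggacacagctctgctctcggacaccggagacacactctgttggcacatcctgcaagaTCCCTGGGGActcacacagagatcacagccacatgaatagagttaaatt
Pou2af1, chr9:51213440-51213689, plus strand: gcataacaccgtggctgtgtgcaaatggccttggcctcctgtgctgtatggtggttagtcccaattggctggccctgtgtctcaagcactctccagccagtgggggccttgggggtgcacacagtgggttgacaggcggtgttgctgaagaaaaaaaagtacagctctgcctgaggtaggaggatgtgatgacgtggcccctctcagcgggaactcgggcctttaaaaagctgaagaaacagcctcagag
Jchain, chr5:88527898-88528147, minus strand: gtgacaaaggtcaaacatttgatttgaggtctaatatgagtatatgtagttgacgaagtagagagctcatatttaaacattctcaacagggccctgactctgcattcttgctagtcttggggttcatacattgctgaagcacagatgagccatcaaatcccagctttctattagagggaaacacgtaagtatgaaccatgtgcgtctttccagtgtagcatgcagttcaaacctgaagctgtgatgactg

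Windows from 250 bases before to 50 bases after the start were at hand for 5 of the 9 members, Cr2, Jchain, Cd79a, Cd22 and Pou2af1. They were searched on both strands for 3 motifs. The octamer ATGCAAAT, which Oct proteins bind together with the coactivator that Pou2af1 encodes, was in 0 of the 5 windows and in 1.74% of all 32851 windows. The PU.1 core GAGGAAGT was in 0 of the 5 and in 3.20% of all. The EBF1 core, TCCC and GGGA with any pair of bases between them, reads the same on both strands and was in 1 of the 5, that of Cd22, and in 0.904% of all. Its match starts 49 bases before the start. GENCODE has 16 transcripts of Cd22, of which 11 start further upstream, so the window covers 1 of several starts. A match of this kind is a description of the letters and not a measured site.

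The filter on low counts passed 8 of the 9 genes, all but Cr2, and none of the 8 was called higher or lower in CgA-KO livers. EdgeR called 0 of them, where it called 8.6% of all genes higher, 3.84% lower and 12.4% in either direction. At an unadjusted p under 0.05 there was 1 member, Cd22, against 29.1% of all genes. Log2 fold changes of the 8 ran from -0.95 to 1.86 with a median of 0.32, and 5 were above 0, while the median of all genes was -0.01. DESeq2 called 1, Cd22, against 11.6% of all genes called higher by it. In 1 of the 8 every CgA-KO library lay above every WT library, again Cd22, where 19% of all genes did so.

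**Figure D1:**
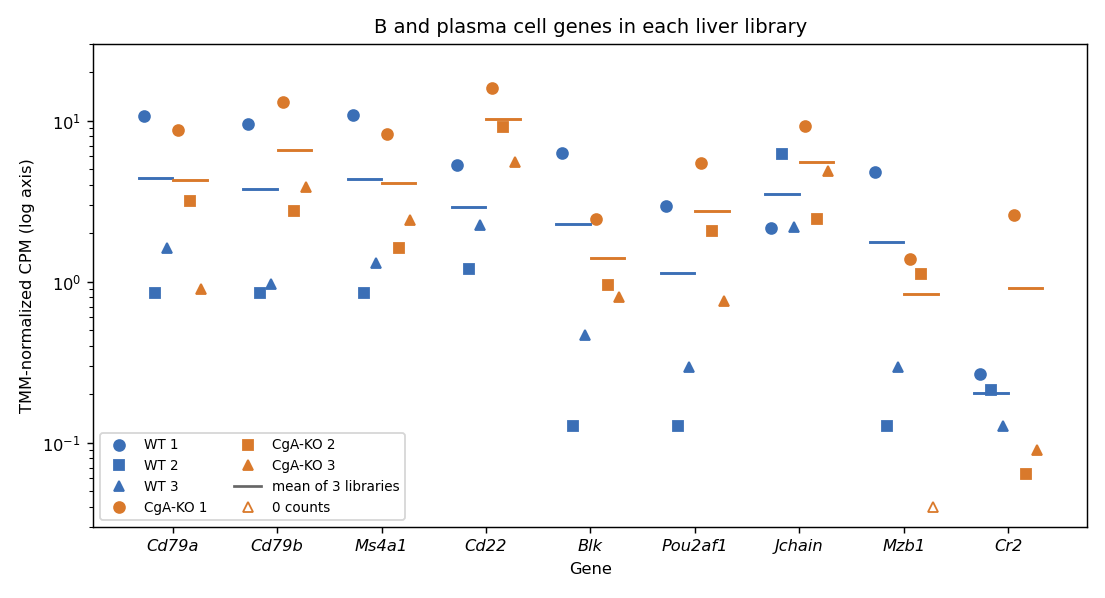
Level of each of the 9 genes in each library, in TMM-normalized CPM on a log axis, with each library as a point, the mean of each genotype as a bar and the open mark for 0 counts. WT replicate 1 or CgA-KO replicate 1 is the highest point for every gene, and the genotypes are apart for Cd22 alone.

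The signalling partners of the receptor come first. Cd79a (chromosome 7 of GRCm38, 24897381 to 24902197) had 10.7, 0.851 and 1.61 CPM in WT replicates 1, 2 and 3 and 8.77, 3.17 and 0.896 CPM in CgA-KO replicates 1, 2 and 3. WT replicate 1 held the highest level of all, and the 3 CgA-KO values lay within the range of the WT values. The means were 4.40 ± 5.51 CPM in WT and 4.28 ± 4.05 in CgA-KO (SD, n = 3 each), a log2 fold change of 0.01 with a 95% interval from -2.18 to 2.20 (edgeR adjusted p = 0.995). Cd79b (chromosome 11, 106311341 to 106314762) had 9.49, 0.851 and 0.974 CPM in WT and 13.0, 2.76 and 3.85 in CgA-KO. Here CgA-KO replicate 1 was highest, and WT replicate 1 lay above the other CgA-KO livers. Its log2 fold change was 0.86 (-1.25 to 2.97, edgeR adjusted p = 0.589). The proteins pair in the receptor, and per kilobase of exon the levels of the genes were close in WT, 3.02 CPM per kb for Cd79a and 2.64 for Cd79b. In CgA-KO these levels were 2.94 and 4.57 CPM per kb.

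Among the surface proteins, Ms4a1 (CD20, chromosome 19, 11249675 to 11266241) had 10.9, 0.851 and 1.31 CPM in WT and 8.31, 1.62 and 2.42 in CgA-KO. WT replicate 1 and CgA-KO replicate 1 stood above the other 4 livers, and the genotypes overlapped. The log2 fold change was -0.03 (-2.18 to 2.11, edgeR adjusted p = 0.985). An antisense gene, 4930526L06Rik, overlaps Ms4a1, and whether the counting used strand is not given in the sources used here.

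Cd22, an inhibitory coreceptor that binds sialic acid and recruits the phosphatase Ptpn6, lies on chromosome 7 from 30865402 to 30880342. Cd22 had 5.28, 1.19 and 2.24 CPM in WT and 16.0, 9.10 and 5.51 in CgA-KO livers, on 28 to 59 and on 123 to 345 counts. Every CgA-KO liver lay above every WT liver, by a narrow margin between CgA-KO replicate 3 and WT replicate 1. The means were 2.91 ± 2.13 and 10.2 ± 5.34 CPM, a log2 fold change of 1.86 or 3.64-fold (standard error 0.561, 95% interval 0.59 to 3.13). The adjusted p from edgeR was 0.0621, above the threshold of 0.05, and that from DESeq2 was 0.00833. The exact two-sided permutation test gave p = 0.1, the smallest it can give. In fits that each left out 1 library, Cd22 had an edgeR log2 fold change above 0 in all 6 and was called in 1, that without WT replicate 1 (2.59, adjusted p = 0.0138). The gene Gm29439 lies antisense within it.

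Cr2 (complement receptor 2, CD21), which lowers the threshold for B cell activation by antigen that carries complement and is also made by follicular dendritic cells, lies on chromosome 1 from 195136811 to 195176716. Its counts were 3, 5 and 3 in WT and 56, 2 and 2 in CgA-KO libraries. CgA-KO replicate 1 alone held 77.3% of the summed CPM of the gene, at 2.60 CPM, and the other livers were at or near the floor. It did not pass the filter. With a filter on a total of at least 1 count, its edgeR log2 fold change was 2.17 (adjusted p = 0.424). Fcer2a (CD23), a receptor for IgE that follicular B cells carry with CD21, followed the same library, with 3, 9 and 6 counts in WT and 66, 1 and 7 in CgA-KO.

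Inside the cell, the kinase Blk (chromosome 14, 63372836 to 63417037) had 6.27, 0.128 and 0.466 CPM in WT and 2.46, 0.951 and 0.807 in CgA-KO. The highest and the 2 lowest levels were all in WT livers, with 70, 3 and 11 counts. Its log2 fold change was -0.62 (-3.14 to 1.90, edgeR adjusted p = 0.759). Pou2af1 (OBF-1, chromosome 9, 51213708 to 51240080), a coactivator of antibody genes in B cells, had 2.96, 0.128 and 0.296 CPM in WT and 5.48, 2.06 and 0.762 in CgA-KO. WT replicate 1 exceeded 2 of the 3 CgA-KO livers, so the genotypes overlapped. The log2 fold change of Pou2af1 was 1.44 (-0.96 to 3.85, edgeR adjusted p = 0.407).

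Jchain, which joins the units of secreted IgM and IgA and is made mainly by plasma cells (chromosome 5, 88519809 to 88527891), had 2.15, 6.21 and 2.20 CPM in WT and 9.33, 2.44 and 4.89 in CgA-KO. In contrast to the other members, WT replicate 1 was the lowest library and WT replicate 2 the second highest. The log2 fold change was 0.63 (-0.64 to 1.90, edgeR adjusted p = 0.499). Mzb1, a chaperone of antibody assembly in the endoplasmic reticulum (chromosome 18, 35647267 to 35649367), had 4.84, 0.128 and 0.296 CPM in WT and 1.39, 1.11 and 0 in CgA-KO. It was high in WT replicate 1 and at 0 counts in CgA-KO replicate 3, where 0 counts allow up to 0.134 CPM. The log2 fold change of Mzb1 was -0.95 (-4.00 to 2.10, edgeR adjusted p = 0.687), and Spata24 overlaps it on the same strand.

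WT replicate 1 and CgA-KO replicate 1 held the high levels in both genotypes. WT replicate 1 was highest for 4 members, Cd79a, Ms4a1, Blk and Mzb1, and CgA-KO replicate 1 was highest for the other 5 and among the top 2 for all 9. WT replicate 2 was lowest for 6. The level in WT replicate 1 was 8.74 times the mean of WT replicates 2 and 3 for Cd79a, 10.4 times for Cd79b and 10.1 times for Ms4a1. For Cd22 it was 3.08 times and for Jchain 0.511 times. WT replicate 1 was also the shallowest library, and what set these livers apart was not tested.

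The fold changes of the members turned on these libraries. Without WT replicate 1, all 8 members tested had a log2 fold change above 0, and edgeR called 3 higher, Cd79b at 2.86 (adjusted p = 0.0368), Cd22 at 2.59 (adjusted p = 0.0138) and Pou2af1 at 3.70 (adjusted p = 0.0344), where 11% of all genes were called higher. Ms4a1 (1.95), Blk (2.24), Cd79a (1.82), Mzb1 (1.98) and Jchain (0.44) were not called. Without CgA-KO replicate 1, edgeR called 0 of the 8, with 1 at an unadjusted p under 0.05, Cd22 (adjusted p = 0.223), where 5.24% of all genes were called in either direction. In that fit Cd79a (-1.04), Cd79b (-0.11), Ms4a1 (-1.05), Blk (-1.27) and Mzb1 (-1.49) had values below 0. With both of these libraries left out, a fit added after the data were seen and with 2 livers in each genotype, Cd79b (1.89), Cd22 (2.12) and Pou2af1 (2.75) were called among 7 members tested, where 9.45% of all genes were called higher, and Jchain was at -0.15.

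**Figure D2:**
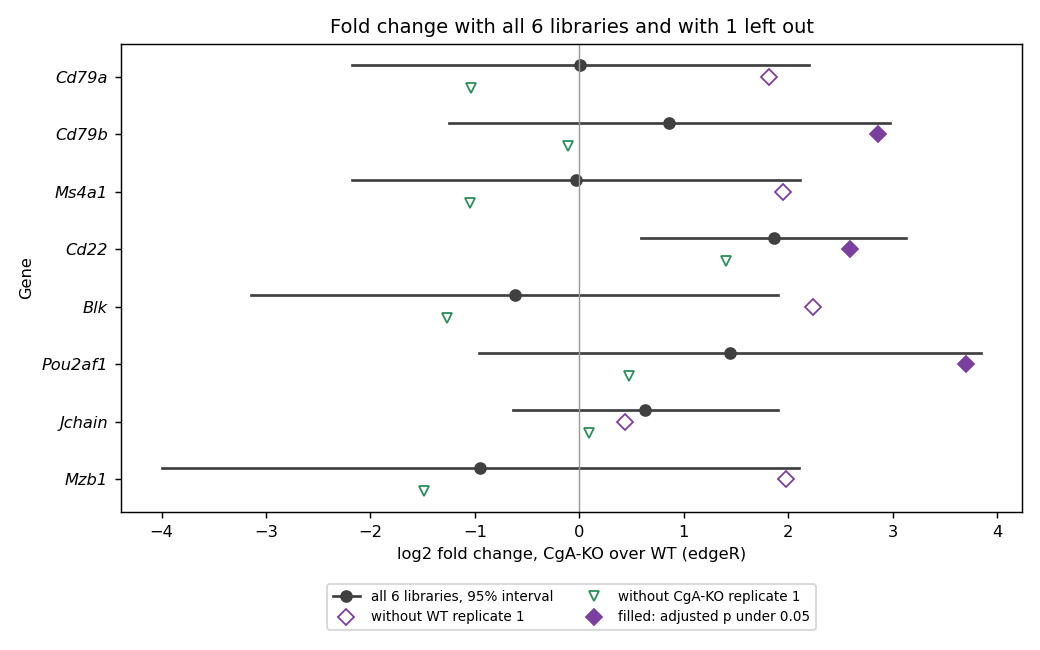
Log2 fold change of CgA-KO over WT for the 8 members tested, by edgeR, with 95% intervals for the fit on all 6 libraries and separate marks for the fits without WT replicate 1 and without CgA-KO replicate 1, filled where the adjusted p is under 0.05. The interval of Cd22 alone lies above 0, and the marks of Cd79a, Cd79b, Ms4a1, Blk and Mzb1 fall on either side of 0.

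Over the 6 libraries, Pearson's correlation of log2 CPM between pairs of members ran from -0.32 (Jchain with Mzb1) to 0.95 (Ms4a1 with Blk) over 36 pairs, with a median of 0.68. The points share libraries and depth, and the values are a description. Genes outside the set were ranked by their correlation with the mean of the scaled log2 CPM of the 8 members, over 12709 genes with a mean of at least 1 CPM. The first 10 were Cracr2b (0.995), Cant1 (0.985), Taf1c (0.985), Fam43a (0.983), Rasgrp2 (0.981), Gnb4 (0.981), Haghl (0.977), Sgsm2 (0.975), Hps1 (0.975) and Trp53bp1 (0.971). None of these 10 is among the B cell genes listed here, and edgeR called none of them. A correlation above 0.9 was found in 0.913% of the genes ranked. Of the 25 genes tested in the wider B cell list below, 8 lay above 0.9, with a median of 0.85 and a range from -0.17 to 0.95. Of the 9 antibody constant genes tested, 2 lay above 0.9. The count was 0 for 19 receptor signalling genes, 16 plasma cell genes, 11 T cell markers and 6 pan-leukocyte markers. Of the transcription factors on the wider list, Spib (0.94) and Pax5 (0.93), chosen after their values were seen, came close to that pattern. Bach2 and Ebf1 were not correlated singly. Ebf1 was highest in CgA-KO replicate 1 (2.60 CPM) and, within WT, in replicate 1 (1.70 CPM). Bach2 was highest in CgA-KO replicate 2 (6.25 CPM) and, within WT, in replicate 3 (3.94 CPM).

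A wider list of 28 B cell genes held 25 that passed the filter, of which 21 had a log2 fold change above 0, with a median of 0.99. EdgeR called 3 higher and 1 lower, 4 of 25 where it called 12.4% of all genes, and DESeq2 called 8, where it called 18.8% of all genes. Fcrl1, a receptor of the Fc family on B cells, was at 0.537, 0.170 and 0.339 CPM in WT and 4.04, 1.97 and 3.09 in CgA-KO, and rose by 3.19 on the log2 scale (standard error 0.529, edgeR adjusted p = 0.00855). Cd180, a toll-like receptor homologue of B cells and macrophages, had 3.40, 0.808 and 0.635 CPM in WT and 11.7, 13.2 and 11.5 in CgA-KO (log2 fold change 3.03, edgeR adjusted p = 0.0128). Neither gene overlapped between the genotypes. The WT levels of Fcrl1 rest on 6, 4 and 8 counts, and Fcrl1 passed the filter through the CgA-KO libraries, with 87, 62 and 69 counts. Cd40, which B cells share with macrophages and dendritic cells, also rose (1.96, edgeR adjusted p = 0.0305), and Ralgps2, an exchange factor for Ral, fell by 0.77 (edgeR adjusted p = 0.0212) from 27.3 ± 2.61 to 16.1 ± 1.07 CPM. Without WT replicate 1 the list had 11 calls, without WT replicate 3 it had 1, and without WT replicate 2, CgA-KO replicate 1 or CgA-KO replicate 2 it had 2 each. The share of all genes called also moved, to 14.9% without WT replicate 1, 5.94% without WT replicate 2 and 2.79% without WT replicate 3, and to 5.24%, 6.98% and 8.75% without CgA-KO replicates 1, 2 and 3. Pax5, a transcription factor that keeps the B cell identity, was chosen after its values were seen. It was at 1.15 and was not called (edgeR adjusted p = 0.551). Fcer2a, Vpreb3 and Gpr183 did not pass the filter.

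Of 19 genes that carry or limit the signal of the receptor, all passed the filter. Of these, 18 had a log2 fold change above 0, with a median of 1.55. EdgeR called 8, all higher, where it called 8.6% of all genes higher. The kinase Lyn went from 24.0 ± 4.70 to 54.5 ± 9.69 CPM (1.19, edgeR adjusted p = 0.0109). The exchange factor Vav1 (2.85, adjusted p = 0.0112), the lipid kinase subunit Pik3cd (2.69, adjusted p = 0.0125), the kinase Btk (2.53, adjusted p = 0.0152) and the phosphatase Ptpn6 (1.56, adjusted p = 0.0225) followed. Inpp5d, Grb2 and Prkcb were also called. These genes are used by myeloid, NK or T cells as well, and the linker of B cells, Blnk, chosen after its values were seen, was at 0.37 (edgeR adjusted p = 0.625). Leaving out WT replicate 3 left 0 calls by edgeR, and leaving out WT replicate 2 left 1. The other fits of this kind gave 4 (CgA-KO replicate 1 or 2), 5 (CgA-KO replicate 3) and 12 (WT replicate 1). The share of all genes called moved in these fits as given above.

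Of 17 plasma cell genes, 16 passed the filter and 6 of these had a log2 fold change above 0, with a median of -0.29. EdgeR called 4 higher and 2 lower, where it called 8.6% of all genes higher and 3.84% lower. Called higher were Prdm1 (2.64, edgeR adjusted p = 0.0149), the transcription factor Blimp-1, Tent5c (1.13, adjusted p = 0.0179), Cd38 (1.92, adjusted p = 0.0186) and Slamf7 (2.05, adjusted p = 0.0285). Prdm1 had 0.806, 0.340 and 0.212 CPM in WT and 2.60, 2.66 and 2.60 in CgA-KO, with no overlap. Its WT levels rest on 9, 8 and 5 counts, and it passed the filter through the CgA-KO libraries, with 56, 84 and 58 counts. Called lower were Fkbp11 (-1.73, adjusted p = 0.00603) and Txndc5 (-0.83, adjusted p = 0.0240), both folding factors of the endoplasmic reticulum, which hepatocytes also use. Txndc5 had 154 ± 5.71 CPM in WT and 86.5 ± 11.8 in CgA-KO. Tnfrsf17 (BCMA), a receptor that marks plasma cells, was at 0 counts in all 6 libraries, with the floors given above. Leaving out WT replicate 3 left 1 plasma cell gene called. Leaving out WT replicate 2, CgA-KO replicate 1 or CgA-KO replicate 3 left 3, 2 and 4. The share of all genes called moved in these fits as given above.

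**Figure D3:**
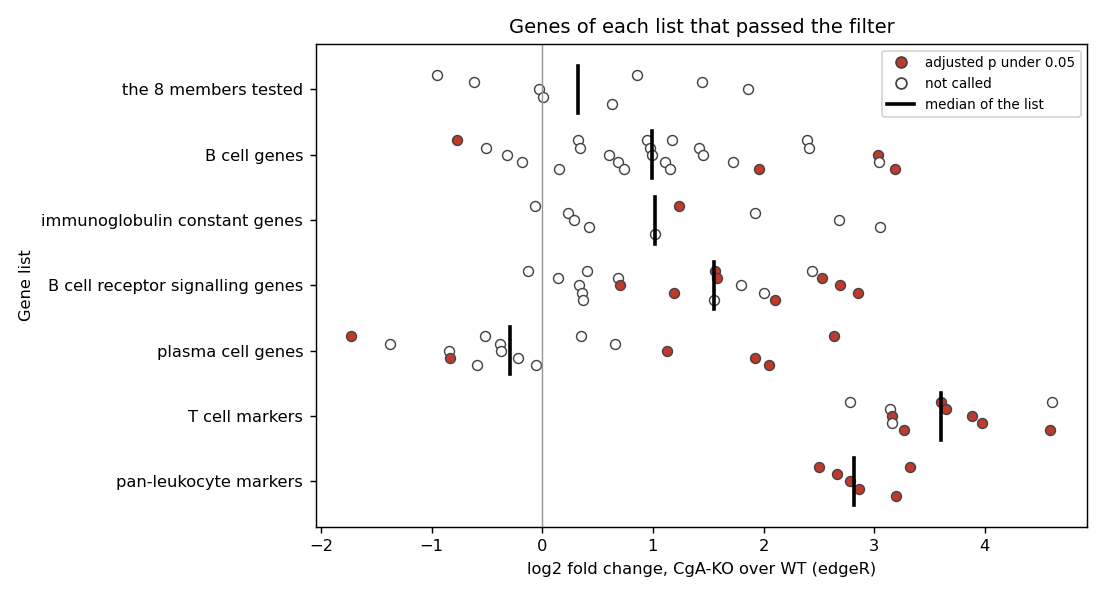
Log2 fold change of CgA-KO over WT, by edgeR, for the genes tested of each list, 1 point per gene, filled where the adjusted p is under 0.05, with the median of each list as a line. The members lie around a median of 0.32 with none filled, and the T cell markers around 3.60.

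Antibody transcripts are a readout that the 9 genes do not hold. Igkc, the kappa constant gene, had 17.0, 17.0 and 9.95 CPM in WT and 47.5, 26.6 and 29.3 in CgA-KO, on 190, 399, 235, 1023, 840 and 653 counts. All CgA-KO livers lay above all WT livers. From 14.6 ± 4.07 to 34.5 ± 11.4 CPM, it rose by 1.24 on the log2 scale (standard error 0.290, 95% interval 0.58 to 1.89, edgeR adjusted p = 0.0267). It was the only one called of the 9 antibody constant genes that passed the filter, where edgeR called 12.4% of all genes. Of these 9, 8 had a log2 fold change above 0. Igkc was not called without WT replicate 3, nor without CgA-KO replicate 1.

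Ighm, the mu heavy chain of IgM, had 65.7, 22.1 and 12.7 CPM in WT and 64.6, 25.1 and 32.4 in CgA-KO. WT replicate 1 and CgA-KO replicate 1 were again the highest, and the log2 fold change was 0.29 (-0.99 to 1.57, edgeR adjusted p = 0.778). Ighd, the delta chain of naive B cells, had 332 counts in CgA-KO replicate 1 and 17 to 41 in the other 5 libraries. The switched classes were spread in another way. Ighg2c had 0, 35 and 1 counts in WT and 109, 235 and 33 in CgA-KO (3.05, edgeR adjusted p = 0.0976), and Ighg2b had 529 counts in CgA-KO replicate 2 against 3 to 62 elsewhere (2.68, edgeR adjusted p = 0.154). For Igha, the log2 fold change was 1.02 (-0.44 to 2.48, edgeR adjusted p = 0.334). The lambda genes Iglc1 (-0.07), Iglc2 (0.23) and Iglc3 (0.42) had adjusted p-values from 0.826 to 0.951. Ighg3, Ighe and Iglc4 did not pass the filter, and Ighg1 was not analysed here.

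As a share of the heavy chain constant counts analysed, which hold no Ighg1 and so lack a main IgG subclass, IgM took 93.5%, 75.0% and 78.6% in WT and 69.2%, 44.5% and 86.8% in CgA-KO. IgG took 1.02%, 12.7% and 3.39% in WT and 9.45%, 43.5% and 6.01% in CgA-KO. The share of IgG was highest in CgA-KO replicate 2, with an exact 95% binomial interval from 41.2% to 45.9% of 1778 counts, while CgA-KO replicates 1 and 3 lay within the WT range, so the genotypes overlapped. IgD took 16.5% in CgA-KO replicate 1 and 1.01% to 9.40% in the others. Lambda made up 32.4% (26.9% to 38.2%) of light chain constant counts in WT replicate 1 and 6.58% to 14.1% in the other 5 libraries. Constant and variable antibody genes have close paralogs, so the quantification may have divided reads between them.

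**Figure D4:**
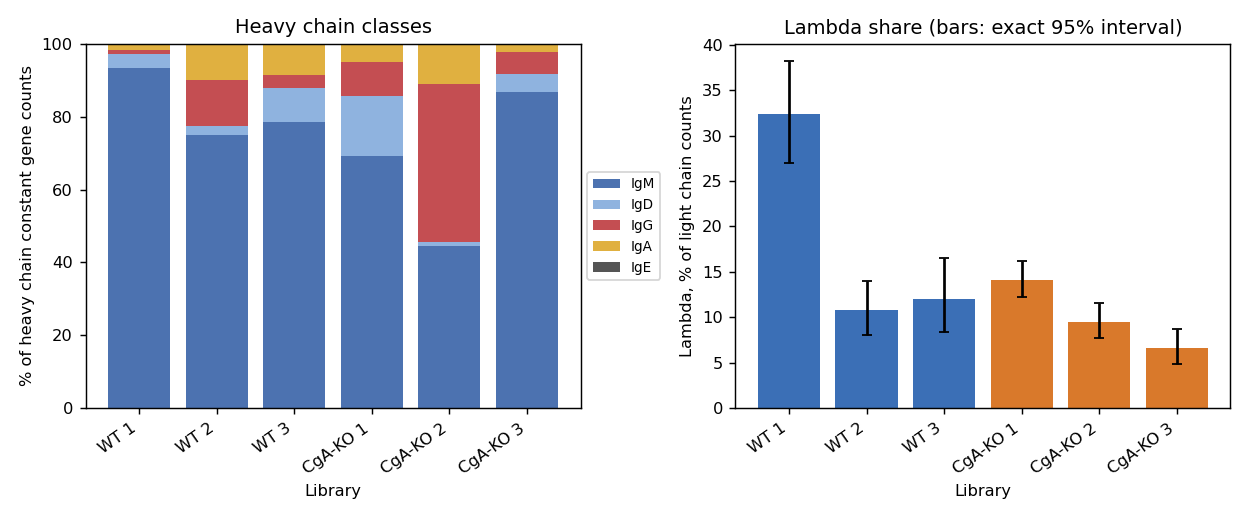
Left, shares of IgM, IgD, IgG, IgA and IgE in the heavy chain constant counts of each library, in percent. Right, lambda share of the light chain constant counts in percent, with exact 95% intervals. CgA-KO replicate 2 has the highest IgG share, 43.5%, and WT replicate 1 the highest lambda share, 32.4%.

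Variable gene segments, which B cells join at random and pass on to their daughters, were on 215 rows, 77 of the heavy chain, 135 of kappa and 3 of lambda. They held 139, 183 and 100 counts on 24, 55 and 39 rows in WT and 535, 442 and 358 counts on 91, 71 and 56 rows in CgA-KO. Every CgA-KO library held more rows than every WT library, and also more counts. These values are not scaled for depth, and WT replicate 1, the shallowest, had the fewest rows. In CPM the heavy chain segments overlapped, with 4.75, 0.936 and 0.508 in WT and 4.64, 1.90 and 2.55 in CgA-KO. The lambda segments overlapped too. The kappa segments did not, with 7.17, 6.17 and 3.60 CPM in WT and 19.0, 11.7 and 12.7 in CgA-KO. A single segment led in some livers. Igkv12-89 took 53 of the 80 kappa variable counts of WT replicate 1 (66.3%, exact 95% interval 54.8% to 76.4%). In CgA-KO replicate 2, Igkv6-17 took 125 of 369 (33.9%), and in WT replicate 2 the leading segment, Igkv4-55, took 10.3%. Only 2 of the 215 rows passed the filter, and edgeR called 0 of them, with 1 at an unadjusted p under 0.05.

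Signals that keep or draw B cells were on a list of 12, of which 6 passed the filter. Ltb, lymphotoxin beta, was the 1 called of these 6, where edgeR called 12.4% of all genes. Its log2 fold change was 2.52 (edgeR adjusted p = 0.0329), with 0.862 ± 0.604 CPM in WT and 4.64 ± 2.60 in CgA-KO. The chemokines Cxcl12 and Cxcl13 were chosen after their values were seen. Cxcl12, which holds B cells and plasma cells in the bone marrow, had 572, 467 and 629 CPM in WT and 395, 380 and 324 in CgA-KO. All CgA-KO livers lay below all WT livers, with a log2 fold change of -0.60 (-1.11 to -0.10) that edgeR did not call (adjusted p = 0.113) and DESeq2 did (adjusted p = 0.0133). Cxcl13, which draws B cells into follicles, had 44.9, 0.893 and 2.75 CPM in WT and 288, 36.5 and 29.7 in CgA-KO, and was thus highest in the same libraries of each genotype as most members. The log2 fold change of Cxcl13 was 2.91 (-1.01 to 6.84, edgeR adjusted p = 0.293). Of 6 genes of early B lineage, 3 were at 0 in every library, and the 1 that passed the filter, Dntt, was at -0.49 and was not called.

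Markers of other immune cells were also measured. All 6 pan-leukocyte markers were called higher, with a median of 2.82, and their sum was 28.2 to 99.3 CPM in WT and 287 to 537 CPM in CgA-KO. T cell markers had a median of 3.60, with 7 of 11 called, Kupffer cell markers 3.04, with 9 of 10 called, and NK cell markers 3.86, with 4 of 7 called. Neutrophil and granulocyte precursor markers summed to 2.63 to 10.6 CPM in WT and to 29.6, 373 and 34.6 CPM in CgA-KO. Of these 9, 4 were tested and 3 called. Of all genes, edgeR called 8.6% higher and 12.4% in either direction. Some of these markers had low WT counts and passed the filter through the CgA-KO libraries. Examples are Cd247 (6, 1 and 2 counts in WT), Prf1 (2, 4 and 1) and Retnlg (0, 13 and 5). Whether these lists differ from the 9 genes was not tested.

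Other cell types could also hold some of the 9 genes. Follicular dendritic cells make Cr2. Of their markers 3 were tested and 0 called by edgeR or DESeq2 or at an unadjusted p under 0.05, with a median of 0.09. They were Clu (0.09), Enpp2 (-0.01) and Cxcl13 (2.91), so the median is the value of Clu, which lay at 665 to 1458 CPM. Cxcl13 was highest in CgA-KO replicate 1, at 288 CPM, the library that also held most of Cr2. Plasmacytoid dendritic cells make some Mzb1 and Blk, and of their markers 4 were tested and 1 called, where edgeR called 12.4% of all genes. This was Pacsin1, higher in CgA-KO (4.17, edgeR adjusted p = 0.0465). It had 3, 1 and 0 counts in WT and 14, 98 and 11 in CgA-KO, and passed the filter through the CgA-KO libraries. Siglech had 1 to 36 counts and Cox6a2 0 or 1. Red cell precursor markers had 2 of 6 called higher and 1 lower, and hepatocyte markers 0 of 10 by edgeR, with 1 at an unadjusted p under 0.05 and 1 called by DESeq2. The part of these cells in the values of the members was not tested.

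The 9 genes summed to 52.9, 10.6 and 9.53 CPM in WT and 67.4, 23.3 and 19.2 in CgA-KO livers. The sums overlapped, since WT replicate 1 lay above CgA-KO replicates 2 and 3. Set against the pan-leukocyte sum, the members came to 53.3%, 33.2% and 33.8% in WT and 20.9%, 4.34% and 6.70% in CgA-KO. All WT livers lay above all CgA-KO livers in this ratio, 40.1 ± 11.4% against 10.7 ± 8.99%, where the pan-leukocyte sum itself was higher in CgA-KO. The T cell sum was 19.3, 4.38 and 7.12 CPM in WT and 62.0, 207 and 52.8 in CgA-KO, so WT replicate 1 was highest of its genotype for T cells too, while CgA-KO replicate 2 and not replicate 1 led among the CgA-KO livers.

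**Figure D5:**
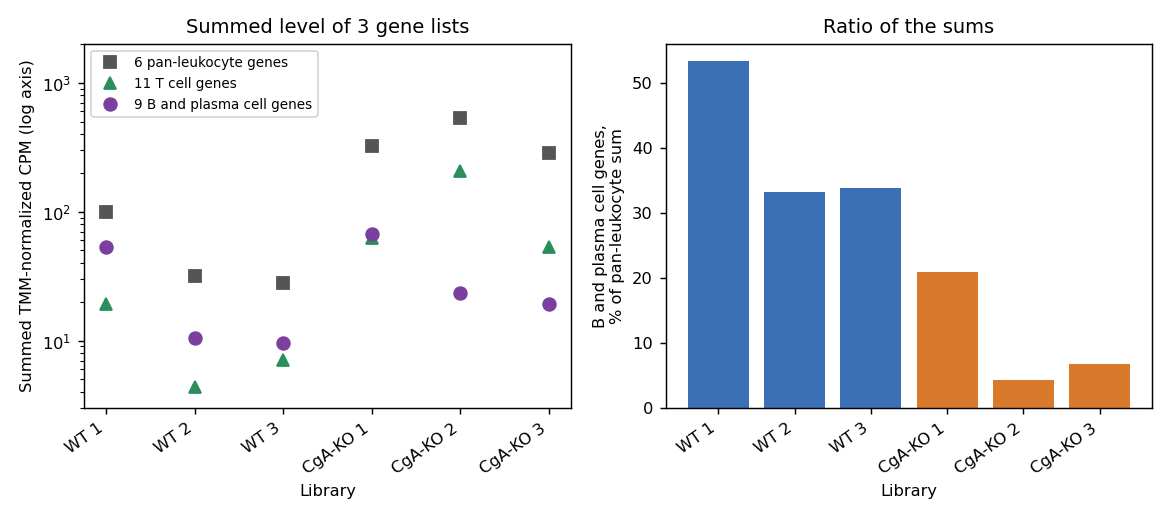
Left, summed CPM per library, on a log axis, of the 9 members, the T cell markers and the pan-leukocyte markers; right, the members' sum as a percentage of the pan-leukocyte sum. The WT and CgA-KO libraries overlap for the members, from 9.53 to 52.9 and from 19.2 to 67.4 CPM, and are apart for the other sums and for the percentage.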

How the data were processed

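The values are counts that the authors deposited in 1 table of 6 libraries, whole numbers per gene symbol and not scaled; all columns were mapped to a sample (0 were not). The authors quantified reads with Salmon 1.4.0 against GRCm38 transcripts. The step from transcripts to genes is not given in the sources used here. Each library is a separate mouse per the labels, and replicates differed by more than sampling noise.

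The tests used edgeR 4.0.16 (R 4.3.3), with filterByExpr with a minimum count of 10, TMM factors (0.756 to 1.12), robust quasi-likelihood fits without covariates and two-sided tests, adjusted over all genes tested. Standard errors come from the F statistic, as the size of the log2 fold change over the root of F. Log2 CPM used a prior count of 2. Gene models are from GENCODE M21. Single genes named are the members, the called genes of each list or the 5 with the smallest p, all antibody constant genes, and the 10 genes most like the members. Fcer2a, Spib, Pax5, Bach2, Ebf1, Blnk, Dapp1, Plcg2, Pik3ap1, Cxcl12, Cxcl13, Clu, Enpp2, Tnfrsf17, Siglech and Cox6a2 lie outside this rule and were chosen after their values were seen. The members and lists were chosen with earlier results of these data known. Alternatives were DESeq2 1.42.0, limma-voom 3.58.1, other scalings, filters and thresholds, a replicate block and leaving libraries out; the fit without replicate 1 of both genotypes was chosen after seeing the data. The procedure was tested on simulated data. Protein sequences were not used here, and 1 gene of the lists is not reported here. Figures were drawn with matplotlib 3.10.9.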

Additional observations from a re-analysis of the deposited data

How the results depend on the processing

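Among the 8 members tested, edgeR called 0, and the count was 1 with DESeq2, 1 with limma-voom, 1 with the replicate block and 0 to 3 with each library left out. Of all genes, edgeR called 12.4%, DESeq2 18.8%, limma-voom 13.1% and the replicate block 10.8%. With each library left out, the share of all genes called ran from 2.79% to 14.9%. It was 2.6% at a threshold of 0.01 and 11.6% without replicate 1 of both genotypes. The labels give no pairing of the replicate numbers. Correlations of same-numbered deviations over all genes were 0.20, 0.01 and -0.07. With 3 libraries per genotype these values cannot decide whether same-numbered samples shared a batch, which was not tested. Of 28 B cell genes, 4 were called, 8 with DESeq2, 1 at a threshold of 0.01, 11 without replicate 1 of both genotypes and 1 to 11 with each library left out. For receptor signalling, the count of 8 became 13 with limma-voom, 0 at 0.01 and 0 to 12 with each library left out. For plasma cell genes, 6 became 1 at 0.01 and 1 to 6 with each library left out. For antibody constant genes, 1 became 0 at 0.01, 2 with the replicate block and 0 to 1 with each library left out. Several members turned direction. Cd79a was at -0.06 with DESeq2 and -0.01 with median-of-ratios factors, and ran from -1.04 to 1.82 with a library left out. Cd79b ran from -0.11 to 2.86. Ms4a1 was at 0.09 with library size alone, 0.71 with limma-voom, 0.42 with the replicate block and 0.93 without replicate 1 of both genotypes, and ran from -1.05 to 1.95. Blk was at 1.09, 0.44 and 1.58 with the last 3 of these, and ran from -1.27 to 2.24. Jchain ran from -0.15 to 1.34 and Mzb1 from -1.55 to 1.98. The cause was not tested. Library size alone moved the median of all genes to 0.26, and 86.6% of its 1493 calls were higher, against 1193 of 1726. Counts of 0 to 5 in some libraries limit the values of Cr2, Mzb1, Blk and Pou2af1. WT replicate 2, the deepest library, had 3 counts of each of the last 3. Outside the members, WT counts of 4 to 9 limit the values of Fcrl1 and Prdm1. Those of 3, 1 and 0 limit Pacsin1, and those of 0, 35 and 1 limit Ighg2c. Mzb1 could not be tested without both replicates 1.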
